A study of Homo sapiens with 22 samples.

Results

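The ZFP36 family consists of 3 genes in human cells, ZFP36 (also called tristetraprolin), ZFP36L1 and ZFP36L2, and was examined here in the RNA-seq of growth factor-treated lung fibroblasts. The members were chosen by gene symbol alone, which gave 3 of the 60664 genes in the count files, and all 3 passed the filter on low counts that left 9770 genes for testing. The cells were IMR90, an established line of human fetal lung fibroblasts. Every culture had received siRNA at 10 nM, added every 24 h for 72 h, and had been kept without serum for the last 24 h. The siRNA was either a nontargeting control or a pool against MSK2, the nuclear kinase encoded by RPS6KA4. Each of the 2 siRNAs was followed by PBS (labelled 60 min; 4 libraries per siRNA), by 750 pM EGF for 30 min (4 libraries per siRNA) or by 750 pM EGF for 60 min (3 libraries per siRNA), which gave 6 groups and 22 libraries. The study asked which transcripts respond to EGF and which of these responses need MSK2. Whether the replicates came from separately grown cultures is not stated in the sources used here, so that P values measure only how these libraries vary, all from 1 cell line.

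Proteins of the ZFP36 family carry a pair of CCCH zinc fingers that bind AU-rich elements in the 3′ untranslated regions (UTRs) of short-lived mRNAs. The bound protein recruits the CCR4-NOT complex, which removes the poly(A) tail, after which the mRNA is decapped or degraded by the exosome. Phosphorylation by kinases such as MAPKAPK2 creates docking sites for 14-3-3 proteins and slows this decay, and the phosphatase PP2A reverses it. The 3 genes belong to the immediate early genes, transcribed within minutes of growth factor addition, and their own mRNAs also contain AU-rich elements. RNA-seq measures the amount of mRNA only and not the amount, phosphorylation or binding of the proteins.

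ZFP36 (ENSG00000128016) lies on chromosome 19 from 39406847 to 39409412 on the plus strand, ZFP36L1 (ENSG00000185650) on chromosome 14 from 68787660 to 68796253 on the minus strand, and ZFP36L2 (ENSG00000152518) on chromosome 2 from 43222402 to 43226606 on the minus strand, in GENCODE v44 on GRCh38. The canonical transcript of each has 2 exons. The heptamer TATTTAT, the core of the binding site of the family as written in DNA letters, was counted on the transcript strand of the canonical 3′ UTRs with overlapping copies included. There were 3 copies in the 708 bases of ZFP36, 3 in the 1871 bases of ZFP36L1 and 3 in the 1917 bases of ZFP36L2. The longer nonamer TTATTTATT, which contains the heptamer, occurred 1 time in each member. Of the 9550 tested genes with a canonical 3′ UTR, 7.57% held 3 or more heptamers and 9.97% held at least 1 nonamer. The nonamers are shown because they are the sites in the family's own mRNAs that match the binding motif best; the nonamer is in capitals, and the flanking bases are in lower case.
ZFP36, chr19:39409196-39409224, plus strand: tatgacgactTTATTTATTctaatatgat
ZFP36L1, chr14:68788077-68788105, minus strand: aactgttggaTTATTTATTttagaaattc
ZFP36L2, chr2:43223448-43223476, minus strand: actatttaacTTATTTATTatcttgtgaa
The flanks differed between the 3 mRNAs. A match is a description of the letters and not evidence of binding in these cells.

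RefSeq promoter windows (250 bases before to 50 after the start, GRCh38.p14) were at hand for ZFP36 (1 window) and ZFP36L1 (2 windows). The window of each gene that held a searched motif is printed, because the motifs in the windows of the 2 genes differed. Whether these motifs have a part in the response to EGF was not tested. Motifs are in capitals. They were searched on both strands as the CArG box (by name), the cyclic AMP response element TGACGTCA, the AP-1 site TGACTCA, the EGR site GCGTGGGCG, the Sp1 site GGGCGG, the ETS core CCGGAA and the TATA box TATAA.
ZFP36, chr19:39406597-39406896, plus strand: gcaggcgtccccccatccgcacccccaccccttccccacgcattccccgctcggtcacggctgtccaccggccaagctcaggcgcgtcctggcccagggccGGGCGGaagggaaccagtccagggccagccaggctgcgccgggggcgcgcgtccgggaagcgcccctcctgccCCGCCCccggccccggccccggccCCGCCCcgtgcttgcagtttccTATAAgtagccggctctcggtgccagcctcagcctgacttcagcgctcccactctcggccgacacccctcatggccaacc
ZFP36L1, chr14:68793367-68793666, minus strand: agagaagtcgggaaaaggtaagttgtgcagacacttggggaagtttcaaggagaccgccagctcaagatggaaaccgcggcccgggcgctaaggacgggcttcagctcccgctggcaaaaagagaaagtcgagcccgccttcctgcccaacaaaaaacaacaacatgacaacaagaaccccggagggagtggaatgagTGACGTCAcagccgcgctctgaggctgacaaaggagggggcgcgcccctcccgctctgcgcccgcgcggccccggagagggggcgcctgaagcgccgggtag
In the ZFP36 window, Sp1 sites began at −149, −76 and −52 and a TATA box at −30 from the start. The ZFP36L1 window held 1 cyclic AMP response element, at −52, and its other window held none of the 7 motifs. Of 35116 RefSeq promoter windows, 1.85% held a cyclic AMP response element, 45.0% an Sp1 site, 20.4% a TATA box, 1.29% a CArG box, 4.95% an AP-1 site, 0.795% an EGR site and 17.2% an ETS core. Motifs are only matches in this window, and more distant regulatory regions were not searched.

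The libraries held between 7893209 and 22244216 gene counts (median 15037489.5). The MSK2 transcript RPS6KA4 was 87.7% lower with MSK2 siRNA after PBS, 85.6% lower after 30 min and 86.3% lower after 60 min of EGF, without overlap between libraries (two-sided exact permutation P = 0.0286, 0.0286 and 0.1, each the smallest that the design allows). All 10 fibroblast markers were measured above the filter, whereas 0 of 4 leukocyte markers passed it and their summed level was at most 0.673 counts per 1000000 counts (CPM). Of 5 epithelial markers 3 passed, and the 5 summed to 48.2 to 70.0 CPM, with KRT18 alone at 31.4 to 52.4 CPM. The endothelial markers differed between the siRNAs, from 51.1 to 64.7 summed CPM with control siRNA and from 15.5 to 26.5 with MSK2 siRNA. TEK accounted for most of this, with 49.0 to 61.1 CPM against 11.1 to 22.6, while CDH5 was at 0 in 13 libraries. The summed fibroblast markers ranged from 45260 to 62815 CPM with control siRNA and from 62144 to 74928 with MSK2 siRNA. Mitochondrial transcripts held 1.45 to 1.95% of counts after PBS with control siRNA and 2.04 to 2.85% with MSK2 siRNA, and 1.16 to 1.59% and 1.82 to 1.95% after 60 min of EGF. After 30 min of EGF the 2 ranges overlapped, at 1.46 to 2.07% with control siRNA and 1.54 to 2.07% with MSK2 siRNA. The part of these differences in the comparisons between siRNAs below was not tested. PBS control replicate 4 had the fewest counts and stood apart on the second principal component. Values without it are given below for the rises of ZFP36L1 with control siRNA and for ZFP36L1 between siRNAs after PBS. The other values that depend on it include it, and for some of them ranges with 1 library left out are given at the end.

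ZFP36 mRNA was low in unstimulated cells and was the member with the largest rise after EGF. Levels are given as CPM after TMM scaling, in which fewer expressing cells and less mRNA per cell cannot be told apart. With control siRNA, ZFP36 was at 43.6, 30.1, 33.7 and 39.2 CPM in the 4 PBS libraries, at 211, 216, 198 and 206 CPM after 30 min of EGF, and at 194, 171 and 162 CPM after 60 min. Every EGF library was therefore above every PBS library, and the 3 libraries of 60 min were below the 4 of 30 min. The means were 36.6 ± 5.93 (SD, n = 4), 208 ± 7.56 (SD, n = 4) and 176 ± 16.4 CPM (SD, n = 3). On the log2 scale ZFP36 was higher than PBS by 2.51 (adjusted P = 6.53e-17 from edgeR, SE 0.10) at 30 min and 2.27 (adjusted P = 5.01e-16, SE 0.10) at 60 min. Between 30 and 60 min ZFP36 changed by a log2 fold change of −0.24 (95% interval −0.44 to −0.04, adjusted P = 0.283), which did not pass.

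ZFP36L1 mRNA rose at 30 min and was higher again at 60 min. It was at 258, 223, 251 and 188 CPM after PBS, at 350, 310, 344 and 305 CPM after 30 min and at 485, 462 and 450 CPM after 60 min. The 3 groups did not overlap, and the lowest PBS value was that of replicate 4. The means were 230 ± 32.0 (SD, n = 4), 327 ± 23.0 (SD, n = 4) and 466 ± 17.6 CPM (SD, n = 3). Against PBS, ZFP36L1 was higher on the log2 scale by 0.51 (adjusted P = 0.000826, SE 0.09) at 30 min and 1.01 (adjusted P = 3.61e-09, SE 0.09) at 60 min. The step from 30 to 60 min, 0.51 (adjusted P = 0.00101, SE 0.09), also passed. Without PBS control replicate 4 the rises were 0.42 (adjusted P = 0.00353) and 0.93 (adjusted P = 4.11e-09).

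ZFP36L2 mRNA rose the least. It was at 240, 179, 206 and 179 CPM after PBS, at 252, 244, 260 and 226 CPM after 30 min and at 338, 280 and 276 CPM after 60 min. The PBS and 30 min libraries overlapped, whereas those of 60 min were above both. The means were 201 ± 28.9 (SD, n = 4), 246 ± 14.7 (SD, n = 4) and 298 ± 34.8 CPM (SD, n = 3). Its rise over PBS at 60 min, 0.57 on the log2 scale (adjusted P = 0.000472, SE 0.10), passed. The values of 0.29 at 30 min (95% interval 0.09 to 0.48, adjusted P = 0.479) and 0.28 from 30 to 60 min (0.07 to 0.49, adjusted P = 0.211) did not.

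**Figure D1:**
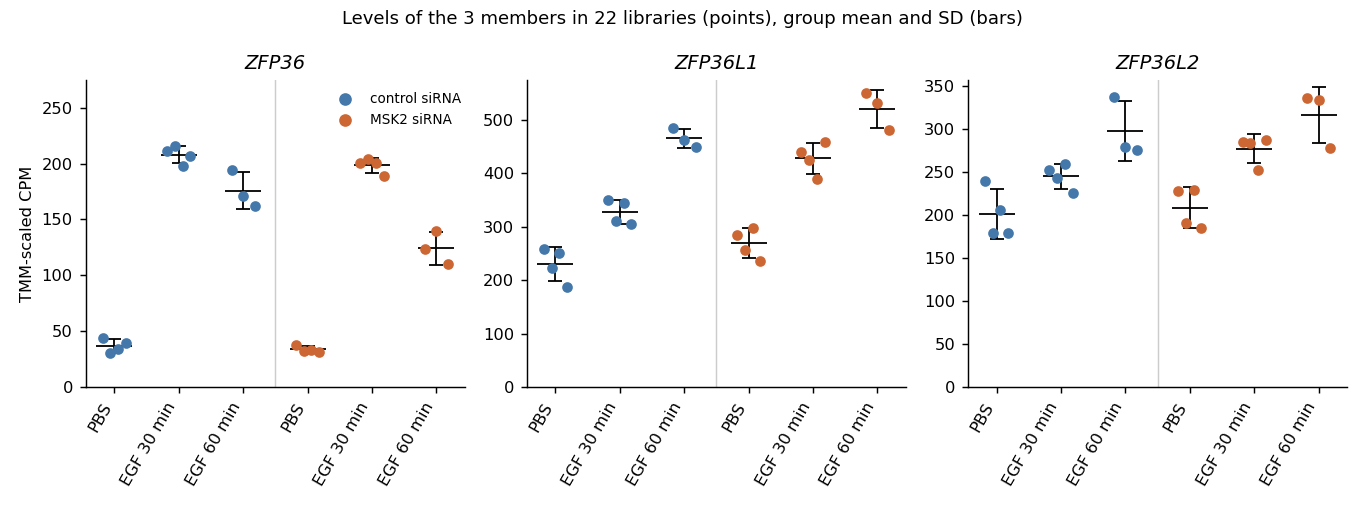
Levels of ZFP36, ZFP36L1 and ZFP36L2 (vertical axes, TMM-scaled CPM) in each of the 22 libraries (points) of the 6 groups, with control siRNA in blue and MSK2 siRNA in orange; black bars give the group mean and SD. ZFP36 has its highest mean, 208 CPM, at 30 min with control siRNA and is at 124 CPM at 60 min with MSK2 siRNA, whereas ZFP36L1 and ZFP36L2 have their highest means at 60 min with either siRNA.

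With control siRNA, 2 of the 3 members passed at 30 min, both higher, against 0.614% of the 9770 genes tested (0.614% for higher alone). At 60 min 3 of 3 passed, all higher, against 2.65% of all genes (2.5% higher and 0.154% lower). Between 30 and 60 min 1 of 3 passed, against 1.8%.

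The responses were also measured within the MSK2 siRNA libraries, which share no library with those above. They are not a fully independent repeat, because the PBS libraries of the 2 siRNAs deviated together by replicate number and all groups shared 1 fit. With MSK2 siRNA ZFP36 was at 38.0, 32.5, 32.8 and 31.2 CPM after PBS, at 201, 204, 201 and 189 CPM after 30 min of EGF, and at 123, 139 and 110 CPM after 60 min. The 3 groups did not overlap, and the 60 min libraries lay between the others. Against PBS the log2 fold change of ZFP36 was 2.56 (adjusted P = 3.49e-17, SE 0.10) at 30 min and 1.89 (adjusted P = 3.05e-14, SE 0.10) at 60 min. Its level then fell by 0.67 (log2) from 30 to 60 min (adjusted P = 6.65e-05, SE 0.10).

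ZFP36L1 with MSK2 siRNA was at 285, 256, 298 and 236 CPM after PBS, at 439, 424, 390 and 459 CPM after 30 min and at 550, 531 and 480 CPM after 60 min, in groups that did not overlap. Its log2 fold change against PBS was 0.67 (adjusted P = 7.16e-06, SE 0.09) at 30 min and 0.95 (adjusted P = 1.26e-08, SE 0.09) at 60 min. From 30 to 60 min it was 0.28 (95% interval 0.09 to 0.47, adjusted P = 0.251), which did not pass. ZFP36L2 was at 228, 192, 230 and 185 CPM after PBS, at 285, 285, 253 and 288 CPM after 30 min and at 336, 334 and 279 CPM after 60 min. The EGF libraries of ZFP36L2 were all above those of PBS, and those of 30 and 60 min overlapped. It rose by 0.41 (adjusted P = 0.0242, SE 0.09) at 30 min and 0.60 (adjusted P = 0.000204, SE 0.10) at 60 min, and the step from 30 to 60 min was 0.19 (95% interval −0.02 to 0.40, adjusted P = 0.754). The call for ZFP36L2 at 30 min was lost when any of 5 of the 8 libraries was left out (PBS with MSK2 siRNA replicates 2 and 4 and EGF 30 min with MSK2 siRNA replicates 1, 2 and 4), with log2 fold changes of 0.35 to 0.40 and adjusted P of 0.0787 to 0.165.

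With MSK2 siRNA, 3 of 3 members passed at 30 min, against 0.778% of all genes, and 3 of 3 at 60 min, against 2.16%. Between 30 and 60 min 1 of 3 passed, against 1.04%.

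**Figure D2:**
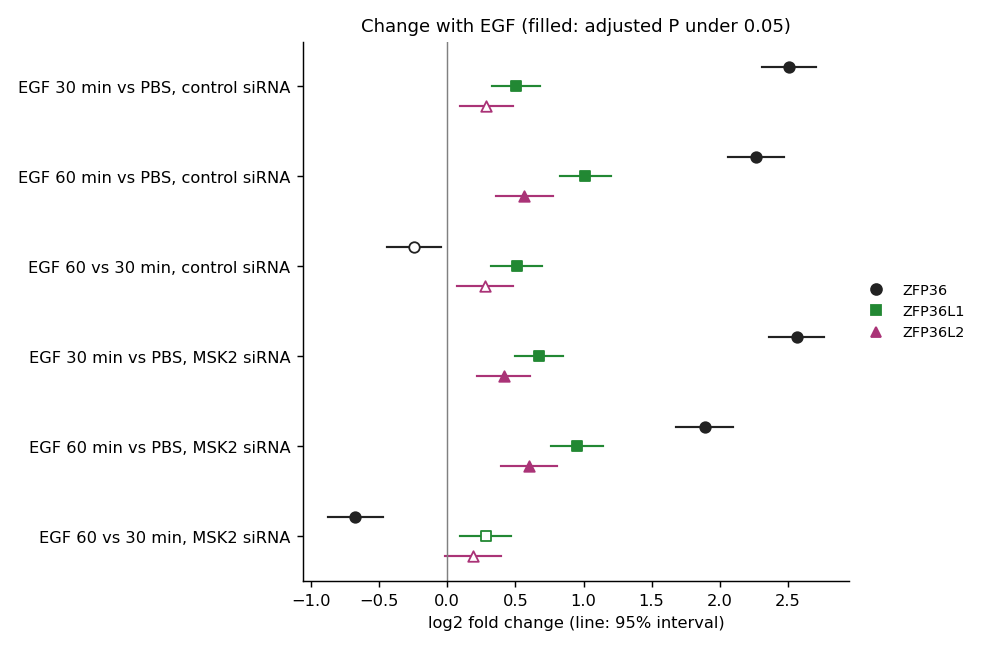
Log2 fold changes of the 3 members (horizontal axis) in the 6 comparisons of EGF treatments, with 95% intervals from edgeR as lines; filled symbols mark adjusted P under 0.05. ZFP36 lies at 1.89 to 2.56 in the comparisons with PBS and below 0 from 30 to 60 min, where ZFP36L1 and ZFP36L2 lie above 0.

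The order of the levels over the 6 groups differed between members. For ZFP36 the mean rose from PBS with MSK2 siRNA (33.6 CPM) through PBS with control siRNA (36.6), 60 min with MSK2 siRNA (124), 60 min with control siRNA (176) and 30 min with MSK2 siRNA (198) to 30 min with control siRNA (208). Of these neighbors, the PBS groups overlapped, as did 60 min with control siRNA and 30 min with MSK2 siRNA, and both groups of 30 min. For ZFP36L1 the order followed the treatments, and within each treatment control siRNA was below MSK2 siRNA, from 230 to 269, 327, 428, 466 and 520 CPM. Neighbors of ZFP36L1 overlapped within PBS, between 30 min with MSK2 siRNA and 60 min with control siRNA, and within 60 min. ZFP36L2 had the same order of groups, from 201 to 209, 246, 278, 298 and 316 CPM, but all of its neighbors overlapped.

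The members were compared with each other only per kilobase of exon (RPKM). The result depends on the length used, because the annotated exons of ZFP36L1 sum to 6466 bases and its canonical transcript has 3017, whereas the lengths are 1976 and 1747 for ZFP36 and 3693 on both counts for ZFP36L2. Over all annotated exons, ZFP36 was at 18.5 RPKM after PBS, 105 after 30 min and 89.0 after 60 min with control siRNA, ZFP36L1 at 35.6, 50.6 and 72.0, and ZFP36L2 at 54.5, 66.5 and 80.7. With control siRNA, ZFP36 thus had the lowest level per length after PBS and the highest at 30 and 60 min of EGF on this scale. However, reads in the 826 exon bases that ZFP36L2 shares with an antisense long noncoding RNA can be lost as ambiguous. The RPKM and share of ZFP36L2 may then be too low with either length, and its place below ZFP36 at 60 min is uncertain. Per kilobase of the canonical transcript the mean of ZFP36 with control siRNA was highest at 30 min only (119 RPKM, beside 108 for ZFP36L1 and 66.5 for ZFP36L2). In replicate 3 of that group ZFP36L1 was above ZFP36 (113.9 and 113.4 RPKM). At 60 min with control siRNA ZFP36 was at 101 RPKM beside 154 for ZFP36L1. With MSK2 siRNA at 30 min ZFP36 was below ZFP36L1 on this length, at 114 beside 142 RPKM. With MSK2 siRNA at 60 min ZFP36 was the lowest of the members over all exons, at 62.9 RPKM beside 80.5 and 85.6. The summed RPKM of the family was 109 after PBS, 222 after 30 min and 242 after 60 min with control siRNA, and 115, 242 and 229 with MSK2 siRNA.

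On this scale ZFP36 held 17.1% of the summed RPKM after PBS, 47.4% after 30 min and 36.8% after 60 min with control siRNA, and 14.8, 41.6 and 27.4% with MSK2 siRNA. With the length of the canonical transcript (an alternative added after the lengths were seen), these shares were 13.9, 40.5 and 30.0%, and 11.7, 34.4 and 21.6%. The rise and the partial return of the ZFP36 share were present with both lengths, but any choice of lengths would give them. A length is constant over the groups. The mean of ZFP36 rose by a larger ratio than the means of the other members and then fell while they rose. From 30 to 60 min only the rise of ZFP36L1 passed with control siRNA, and only the fall of ZFP36 passed with MSK2 siRNA. The order of the other members depended on the length. After PBS with control siRNA ZFP36L1 held 32.8% and ZFP36L2 50.1% over all exons, and 50.3% and 35.8% over the canonical transcripts. Which transcripts of ZFP36L1 these cells used was not determined.

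**Figure D3:**
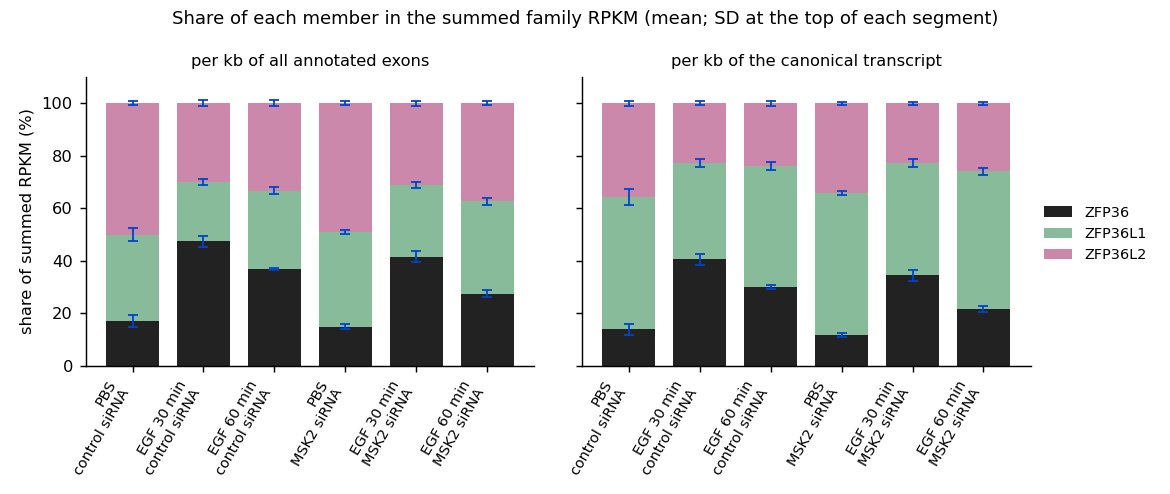
Mean share of each member in the summed RPKM of the family (vertical axis, %) in the 6 groups, with the SD drawn at the top of each segment, per kilobase of all annotated exons (left) and of the canonical transcript (right). The ZFP36 segment grows from 17.1 to 47.4% between PBS and 30 min with control siRNA on the left and from 13.9 to 40.5% on the right, while ZFP36L1 and ZFP36L2 trade places between the panels.

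With MSK2 siRNA, ZFP36 was lower at 60 min of EGF and ZFP36L1 higher at 30 min of EGF than with control siRNA, and no other comparison between siRNAs passed for a member. At 60 min ZFP36 was lower by 0.50 on the log2 scale (95% interval −0.71 to −0.29, adjusted P = 0.000811), with 110 to 139 CPM in the MSK2 siRNA libraries and 162 to 194 CPM in the control libraries. The 2 ranges did not overlap, and the ratio of the means was 0.707. After PBS the ZFP36 log2 fold change was −0.12 (95% interval −0.32 to 0.08, adjusted P = 0.409) and at 30 min −0.07 (−0.25 to 0.12, adjusted P = 0.607), with overlapping libraries in both.

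ZFP36L1 was higher with MSK2 siRNA at 30 min by 0.39 on the log2 scale (adjusted P = 0.00106, SE 0.09), with 390 to 459 CPM against 305 to 350 CPM in controls. These ranges did not overlap. At 60 min the value was 0.16 (95% interval −0.04 to 0.36, adjusted P = 0.280). After PBS it was 0.22 (0.04 to 0.40, adjusted P = 0.0622), with overlapping libraries. In the PBS groups libraries with the same replicate number deviated together, and with the replicate number as a block the PBS value was 0.23 (adjusted P = 0.0284), which passed. Without PBS control replicate 4, which had the lowest ZFP36L1 level, the value was 0.14 (adjusted P = 0.221).

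ZFP36L2 did not pass in any comparison between siRNAs. Its log2 fold change was 0.05 after PBS (95% interval −0.14 to 0.25, adjusted P = 0.749), 0.18 at 30 min (−0.02 to 0.37, adjusted P = 0.159) and 0.09 at 60 min (−0.13 to 0.31, adjusted P = 0.634). The libraries overlapped in all 3 treatments, and the intervals still include rises of 0.25 to 0.37.

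Of the 3 members, 0 passed between siRNAs after PBS in edgeR's quasi-likelihood test (1 at an unadjusted P under 0.05, ZFP36L1; 0 in DESeq2 and in edgeR's exact test), against 24.8% of all genes. At 30 min 1 passed, against 30.1% of all genes, and at 60 min 1 passed, against 19.4% (9.37% higher and 10.1% lower). Counts this near to the share of all genes show nothing particular to the family.

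Whether the response to EGF itself differed between the siRNAs was tested as the difference of the fold changes. For ZFP36 the response at 30 min differed by 0.06 (95% interval −0.22 to 0.33, adjusted P = 0.940), and at 60 min by −0.38 (−0.67 to −0.08, unadjusted P = 0.0139, adjusted P = 1.00). The change from 30 to 60 min differed by −0.43 (−0.71 to −0.15, unadjusted P = 0.00389, adjusted P = 0.259). The lower ZFP36 level at 60 min was thus a call between groups, while the difference in response did not pass after adjustment over all genes.

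For ZFP36L1 the difference in response was 0.17 at 30 min (95% interval −0.08 to 0.42), −0.06 at 60 min (−0.33 to 0.21) and −0.23 in the change from 30 to 60 min (−0.50 to 0.04). For ZFP36L2 it was 0.13 (−0.15 to 0.40), 0.04 (−0.26 to 0.33) and −0.09 (−0.38 to 0.20). None of the 3 members passed in these tests by edgeR's quasi-likelihood test, edgeR without the other groups, or DESeq2. At an unadjusted P under 0.05 the count was 0 at 30 min, 1 at 60 min and 1 in the change, ZFP36 in both. Over all genes, 0.0% passed at 30 min (0 genes; 661 at an unadjusted P under 0.05; 0 in DESeq2), 0.0% at 60 min (0 genes; 216 unadjusted; 3 in DESeq2) and 0.0102% in the change (1 gene; 31 in DESeq2).

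**Figure D4:**
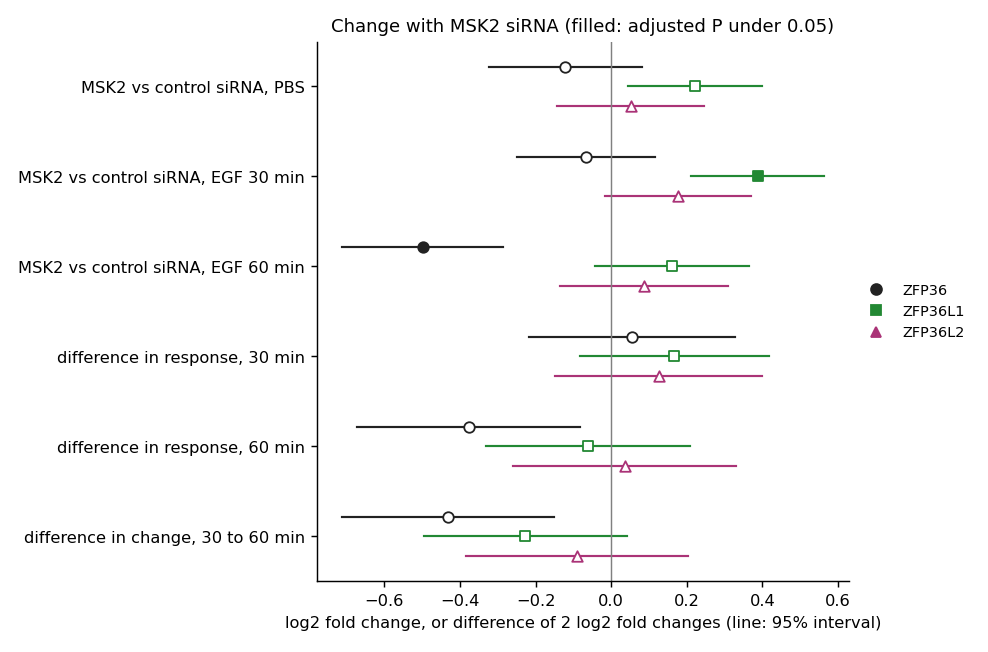
Log2 fold changes of the 3 members between MSK2 siRNA and control siRNA in 3 treatments (upper rows) and differences between the siRNAs in the response to EGF (lower rows), with 95% intervals from edgeR; filled symbols mark adjusted P under 0.05. Only ZFP36 at 60 min (−0.50) and ZFP36L1 at 30 min (0.39) are filled.

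The reported target mRNAs of the family, a list of 42 genes, had 22 members among the tested genes. The list was written with earlier results of these data known and holds several immediate early genes, so that its direction is not independent evidence. With control siRNA, 8 of 22 rose and 0 fell after 30 min of EGF (13 higher and 0 lower at an unadjusted P under 0.05), and 15 rose and 0 fell after 60 min. Over all genes tested, 0.614% rose at 30 min, and 2.5% rose and 0.154% fell at 60 min. The median log2 fold change of the targets at 60 min was 0.75, beside −0.01 over all genes tested. With MSK2 siRNA 15 targets rose and 0 fell at 60 min, where 2.16% of all genes passed in either direction. All 15 were the genes that rose with control siRNA.

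Among the targets with the smallest P at 60 min with control siRNA were DUSP1, a MAP kinase phosphatase, and FOS, a subunit of AP-1. DUSP1 had a mean of 62.2 CPM after PBS, 208 after 30 min and 435 after 60 min (log2 fold change 2.81 at 60 min, SE 0.09). FOS had 11.5, 185 and 72.0 CPM (2.65, SE 0.13), and like ZFP36 its libraries of 60 min were all below those of 30 min. The others were LIF, a cytokine of the interleukin 6 family (2.07, SE 0.13), IER3, an immediate early survival gene (1.96, SE 0.13), MCL1, an antiapoptotic protein (1.15, SE 0.08), and PTGS2, the inducible cyclooxygenase (2.77, SE 0.23). LIF went from 36.0 to 65.0 and 152 CPM and PTGS2 from 5.79 to 14.3 and 39.3 CPM. Their adjusted P ranged from 1.93e-19 for DUSP1 to 5.43e-10 for PTGS2.

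More of the targets were lower than higher with MSK2 siRNA. At 60 min of EGF 12 of 22 were lower and 1 higher (median −0.46, beside 0.01 over all genes), and after PBS 12 were lower and 2 higher (median −0.36, beside 0.00). Over all genes, 10.1% were lower and 9.37% higher at 60 min, and 24.8% passed in either direction after PBS. DLL4, a Notch ligand, had a log2 fold change of −2.15 (SE 0.19) at 60 min and PIM1, a kinase, −1.14 (SE 0.11). PTGS2 was lower by 1.83 (SE 0.24), VEGFA, a vascular growth factor, by 0.85 (SE 0.12) and MYC, a transcription factor, by 0.78 (SE 0.11). VEGFA averaged 98.2 CPM with MSK2 siRNA and 177 with control siRNA at 60 min. After PBS the log2 fold changes of these 5 genes were −2.19, −0.94, −1.80, −0.92 and −1.11 in the same order. DLL4 averaged 5.24 CPM with MSK2 siRNA and 23.1 with control siRNA at 60 min, and 2.08 and 9.73 after PBS. PTGS2 averaged 1.58 and 5.79 CPM after PBS. The fold changes of DLL4 and PTGS2 after PBS thus rest on low levels.

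**Figure D5:**
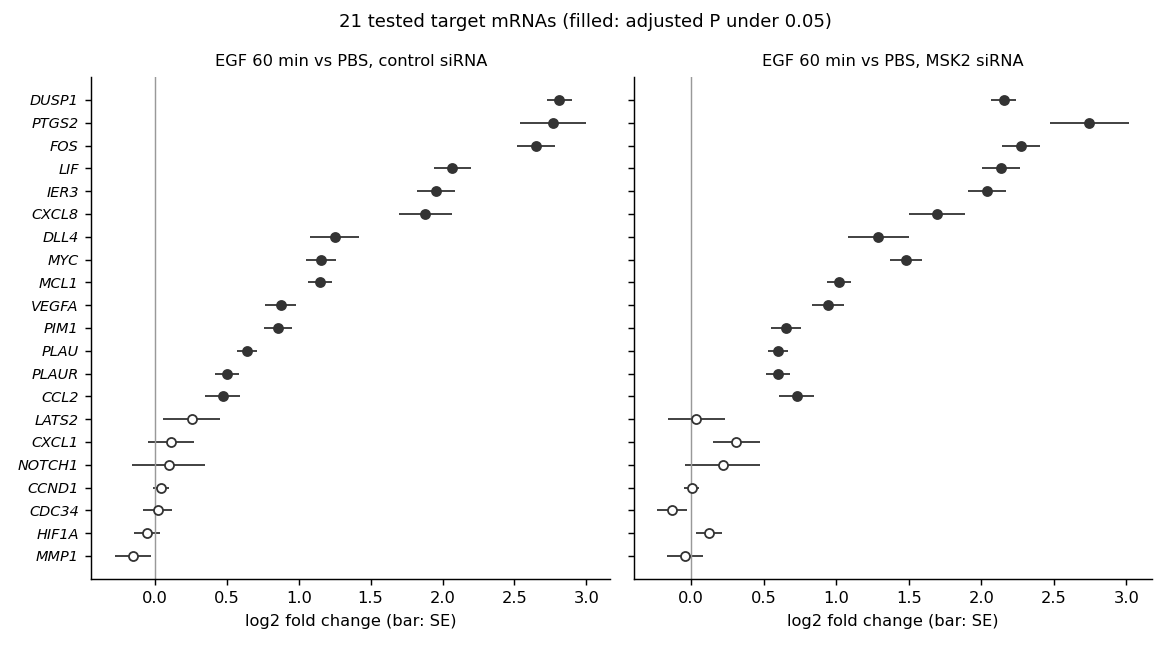
Log2 fold changes (horizontal axes, with SE) of 21 of the 22 tested target mRNAs after 60 min of EGF against PBS with control siRNA (left) and MSK2 siRNA (right), which share no library; filled points mark adjusted P under 0.05. The same 14 genes are filled on both sides, all above 0, with DUSP1 at 2.81 on the left and 2.16 on the right.

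Genes with more copies of the heptamer in the 3′ UTR rose in a larger share. Of the 723 tested genes with 3 or more copies, 50 (6.92%) rose at 60 min with control siRNA, beside 108 (3.72%) of 2906 genes with 1 or 2 copies and 83 (1.40%) of 5921 genes without one. At 30 min the shares were 2.63, 0.723 and 0.304%. The median 3′ UTR length was 4426, 2384 and 919 bases in these groups, and the part of length in the difference was not tested. Of the 22 tested targets, 20 held a heptamer, with 3 copies in DUSP1, 2 in FOS, 5 in LIF, 4 in IER3 and 7 in PTGS2.
DUSP1, chr5:172768643-172768671, minus strand: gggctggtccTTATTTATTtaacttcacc
FOS, chr14:75282060-75282088, plus strand: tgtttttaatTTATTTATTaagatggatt
PTGS2, chr1:186674317-186674345, minus strand: atgatcatatTTATTTATTtatatgaacc
These 29-base windows are set around a nonamer (capitals) of the 3 targets with the largest rise at 60 min, for comparison with those of the family's own mRNAs.

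Of 21 tested proteins that bind AU-rich elements or regulate short-lived mRNAs, 0 passed at 30 min with control siRNA (edgeR, 1 at an unadjusted P under 0.05), where 0.614% of all genes passed. At 60 min with control siRNA 3 rose, where 2.65% of all genes passed. ZC3H12A (regnase), an endonuclease that degrades inflammatory mRNAs, was higher by 1.49 on the log2 scale (adjusted P = 2.14e-10, SE 0.12), from 17.7 CPM after PBS to 50.6 CPM. RC3H2, a roquin that recognizes stem loops, rose by 0.42 (SE 0.11), and ARID5A, which stabilizes a set of cytokine mRNAs, by 0.57 (SE 0.15). Between the siRNAs 3 of the 21 were higher and 4 lower after PBS, where 24.8% of all genes passed in either direction. At 60 min 1 was higher and 3 lower, where 19.4% of all genes passed. AUH was higher with MSK2 siRNA by 0.73 (SE 0.11) after PBS and 0.72 (SE 0.12) at 60 min, and HNRNPAB was lower by 0.58 (SE 0.10) and 0.42 (SE 0.11).

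The decay machinery that the family recruits was counted in the same way. Over all genes, 2.65% passed at 60 min of EGF with control siRNA. Between the siRNAs 24.8% of all genes passed after PBS and 19.4% at 60 min. Of 17 genes of deadenylation 0 passed at 60 min of EGF with control siRNA (2 at an unadjusted P under 0.05), and between the siRNAs 2 were higher and 1 lower after PBS, and 1 higher and 1 lower at 60 min. With MSK2 siRNA CNOT6, a deadenylase, was higher by 0.35 (SE 0.13) after PBS and 0.47 (SE 0.15) at 60 min, and CNOT9, a CCR4-NOT subunit, was lower by 0.73 (SE 0.10) and 0.71 (SE 0.11). Of 20 genes of decapping 1 rose at 60 min with control siRNA, DCP1A, a decapping cofactor, by 0.68 (SE 0.10), from 27.2 to 43.8 CPM. Between the siRNAs 3 of the 20 were higher and 1 lower after PBS, and 0 passed at 60 min (edgeR, 3 at an unadjusted P under 0.05). Of 17 genes of the exosome and SKI complex 1 rose at 60 min with control siRNA, the ribosome rescue factor PELO by 0.26 (SE 0.07). PELO was the 1 gene of this list that passed between the siRNAs at 60 min, lower by 0.43 (SE 0.08), and after PBS 0 passed (edgeR, 3 at an unadjusted P under 0.05), with PELO at −0.17 (SE 0.07).

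Of 20 kinases, PP2A subunits and 14-3-3 proteins that act on the family, 0 passed at 30 or 60 min of EGF with control siRNA, and none reached an unadjusted P under 0.05 either (edgeR). Over all genes 0.614% passed at 30 min and 2.65% at 60 min, so that 0 of 20 shows nothing particular to this list. Between the siRNAs 4 of the 20 were higher and 3 lower after PBS, where 24.8% of all genes passed in either direction. At 60 min 1 was higher and 2 lower, where 19.4% of all genes passed. With MSK2 siRNA PPP2R1B, a PP2A scaffold subunit, was higher by 0.71 (SE 0.09) after PBS and 0.55 (SE 0.10) at 60 min. The kinase RPS6KA1 was lower by 0.98 (SE 0.20) and 0.98 (SE 0.23), and AKT1 by 0.23 (SE 0.06) and 0.27 (SE 0.07). RPS6KA1 was at low levels, with means of 5.31 CPM with MSK2 siRNA and 10.3 with control siRNA after PBS, and 5.80 and 11.5 at 60 min. The median log2 fold change of each of these 5 lists at 60 min of EGF was between −0.07 and 0.04 with control siRNA, beside −0.01 over all genes, and between −0.03 and 0.08 with MSK2 siRNA, beside −0.02.

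The genes whose levels followed each member most closely over the 22 libraries were given by Pearson's r of log2(CPM + 0.5), as a description over libraries that share treatments and siRNAs. For ZFP36 these were FOS (r = 0.965), IER2 (0.950), EGR1 (0.933), JUNB (0.932) and JUN (0.925), all immediate early genes. For ZFP36L1 they were RHOB (0.955), ZFP36L2 (0.954), PIM3 (0.946), SPRY2 (0.934) and EGR2 (0.930), and for ZFP36L2 they were ZFP36L1 (0.954), PIM3 (0.930), MIDN (0.920), IER5L (0.916) and RHOB (0.900). ZFP36L1 and ZFP36L2 thus each appeared in the list of the other, whereas the correlation with ZFP36 was 0.745 for ZFP36L1 and 0.738 for ZFP36L2.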

How the data were processed

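RNA was measured in 22 libraries of IMR90 cells in 6 groups, assigned by their labels. For the upstream steps, the sources used here name SMART-Seq v4 (cDNA), Nextera XT (library kit, without strand information), bcl2fastq 2.20.0.422, STAR 2.7.9a with hg38, and HTSeq 0.13.5. The authors deposited raw counts per gene, as whole numbers. The annotation release and the strand setting of HTSeq are not given in the sources used here. In GENCODE v44 ZFP36L2 shares 826 exon bases with an antisense lncRNA, which is among the counted genes, and reads there can be lost as ambiguous. ZFP36L1 shares 512 with a lncRNA on its strand that is not among the counted genes. ZFP36 overlaps no gene. The 5 summary lines of each library, 18.3 to 22.4% of its total, were left out.

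The filter kept genes above 10 CPM in at least 2 libraries (9770). They were fitted by group (6 means, all libraries) in edgeR 4.0.16 (R 4.3.3) after TMM scaling, and the quasi-likelihood P was adjusted by the method of Benjamini and Hochberg over all tested genes, with a threshold of 0.05. CPM are relative to the counts of the tested genes, which hold 98.4 to 98.7% of gene counts. RPKM are CPM per kilobase of exon in GENCODE v44. Replicates differed by more than counting error (chi-square per degree of freedom 5.05 to 31.8). The test was tried on simulated counts.

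The members and the gene lists were chosen with earlier results of these data known. Named genes were the 3 members, RPS6KA4, from each list the 3 tested genes (6 for the targets) with the smallest P for EGF 60 min against PBS with control siRNA and for MSK2 against control siRNA at 60 min, and the 5 genes most correlated with each member. Some genes that this rule names are not reported here. Alternatives were library sizes only, DESeq2 1.42.0 and its size factors, edgeR's exact test, filterByExpr, no filter on low counts, only the compared groups, a replicate block and each library left out. Replicate numbers paired the PBS libraries of the 2 siRNAs, with correlations of deviations from the group means of 0.369, 0.210, 0.143 and 0.500, which comes from the data and not from the labels. In every other comparison at least 1 pair was at or under 0.1.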

Additional observations from a re-analysis of the deposited data

Results flagged for a closer look

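In EGF 30 min with MSK2 siRNA, ZFP36L2 in replicate 3 was at 253 CPM and lay apart from the other libraries of its group, at 285 to 288 CPM. Its gap to the nearest library was 0.904 of the range of the group, above the critical value of Dixon's test for 4 samples. Of 12 groups of 4 libraries tested over the 3 members this was the 1 that exceeded it, and chance alone does so in about 1 of 20 groups.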

How the results depend on the processing

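The rises of ZFP36 and ZFP36L1 against PBS at 30 and 60 min, the rise of ZFP36L2 at 60 min, the fall of ZFP36 from 30 to 60 min with MSK2 siRNA, the rise of ZFP36L1 from 30 to 60 min with control siRNA, the lower ZFP36 at 60 min and the higher ZFP36L1 at 30 min with MSK2 siRNA kept their direction and passed under every alternative run. In all, 617 of 645 recomputed fold changes kept their direction and side of the threshold. For ZFP36L1 between siRNAs after PBS, library sizes only gave 0.23 (adjusted P = 0.0462), the replicate block 0.23 (0.0284) and the block with only the compared groups 0.23 (0.00876), and leaving out 1 library gave 0.14 to 0.29; PBS control replicates 1 and 3 and PBS with MSK2 siRNA replicate 4 each brought it past the threshold when left out (0.28, 0.27 and 0.29). For ZFP36L2 with MSK2 siRNA, EGF 30 min against PBS ranged from 0.35 to 0.46 with 1 library left out. With only the compared groups, ZFP36L2 between siRNAs at 30 min passed at 0.18 (adjusted P = 0.0469).

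The block with only the compared groups was chosen after the data were seen. Outside the comparison of siRNAs after PBS, pairing by replicate number was uncertain. At least 1 pair in each such comparison had a correlation at or under 0.1, while others reached up to 0.524 (replicate 1, 30 to 60 min with MSK2 siRNA). With this block, from 30 to 60 min ZFP36 was at −0.25 (adjusted P = 0.0241) and ZFP36L2 at 0.23 (0.0341) with control siRNA and ZFP36L1 at 0.32 (0.00380) with MSK2 siRNA, which passed. ZFP36L2 at 30 min with MSK2 siRNA was at 0.41 (0.123), which did not. The replicate block over all groups changed no other call of a member. Signs turned only for values near 0 that did not pass, with 1 library left out: ZFP36L2 between siRNAs after PBS ranged from −0.0022 to 0.15, the difference in response of ZFP36 at 30 min from −0.056 to 0.15, that of ZFP36L1 at 60 min from −0.12 to 0.025, that of ZFP36L2 at 60 min from −0.066 to 0.13, and the difference in its change from 30 to 60 min from −0.13 to 0.012. The cause of these changes was not tested.

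Counts of genes called moved by over 1.5 times without the filter on low counts (EGF 60 against 30 min with control siRNA 297 against 176, EGF 30 min with MSK2 siRNA 216 against 76, and the differences between siRNAs 49 against 0, 4 against 0 and 169 against 1). For the latter DESeq2 called 3 against 0 at 60 min and 31 against 1 in the change, only the compared groups 4 against 1 in the change, and the replicate block 2 against 0 at 60 min. The block with only the compared groups called 656 against 176, 43 against 76 and 157 against 102 from 30 to 60 min with control siRNA, at 30 min with MSK2 siRNA and from 30 to 60 min with MSK2 siRNA, 144 against 211 at 60 min with MSK2 siRNA, and 60 against 1 in the difference of the changes. The precision that depth and the number of libraries allow is given by the 95% intervals of the fold changes.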
